A study of Mus musculus with 2 samples.

Results

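Ribosomal protein genes encode the structural proteins of the cytosolic ribosome, and their starts were examined in a ChIP-seq profile of LHX6. LHX6 is a homeodomain protein of the LIM class that is expressed in the mesenchyme of the jaw primordia. Members were LHX6 ChIP-seq intervals whose deposited gene list names a gene called Rpl or Rps with a number, Rplp0, Rplp1, Rplp2 or Rpsa at a distance of at most 1000 bp from its start. Mitochondrial ribosomal proteins and the Rps6k kinases were left out. This gave 43 intervals at 43 genes, of 6566 LHX6 intervals in all and of 2354 LHX6 intervals within 1000 bp of any gene start. With pseudogenes, retrogenes and Rps19bp1 left out, the mouse gene table holds 84 such genes, 77 for core ribosomal proteins and 7 paralogues. Of the 43 genes with an interval, 41 are core genes, and the paralogues Rpl36al and Rpl7l1 are counted apart. Rplp0 appears in the list under its older symbol Arbp, and Rps3a1 as Rps3a.

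The chromatin came from the maxillary arch, the tissue of the upper jaw and palate, of 47 mouse embryos, wild-type and of the CD-1 stock, dissected at E11.5 and pooled. The study had 1 LHX6 library, made from 20 µg of chromatin with a rabbit polyclonal antibody, and 1 input library, made without antibody from tissue of the same genotype, stage and source. There were no replicates, so values carry no replicate error and no difference between sets of genes or intervals was tested. The arches were pooled whole, the files hold no expression values, and the labelled tissue was therefore not checked against its marker genes.

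Eukaryotic ribosomes consist of a small 40S subunit, which decodes the mRNA, and a large 60S subunit, which forms the peptide bonds. The P stalk of the large subunit, made of Rplp0, Rplp1 and Rplp2, recruits translation factors. Ribosomal protein genes are transcribed at high levels in most cells, mainly from starts rich in CpG dinucleotides, and their mRNAs begin with a run of pyrimidines called the terminal oligopyrimidine (TOP) motif, through which the mTOR pathway controls their translation.

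Bases around the start are printed for ribosomal protein genes chosen because a run of pyrimidines lies close to the annotated start. The run need not begin at that start, and in Rpl13 it begins at -16 bp and ends before the start. Each line holds 60 bases before the start and 20 bases from it, 5′ to 3′ on the gene's own strand, from mouse build NCBIM37 (mm9) with GENCODE M1 starts, and capitals mark the longest run of C or T. The first 5 genes had an LHX6 interval at the start.
Rpl13, chr8:125626190-125626269, plus strand: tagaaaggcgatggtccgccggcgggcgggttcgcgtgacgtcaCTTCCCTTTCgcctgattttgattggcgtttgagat
Rpl13a, chr7:52384099-52384178, minus strand: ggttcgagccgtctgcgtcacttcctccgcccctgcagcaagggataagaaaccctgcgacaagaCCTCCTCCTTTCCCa
Rpl22, chr4:151699902-151699981, plus strand: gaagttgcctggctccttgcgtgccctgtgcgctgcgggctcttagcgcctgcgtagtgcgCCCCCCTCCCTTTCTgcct
Rpl5, chr5:108329461-108329540, plus strand: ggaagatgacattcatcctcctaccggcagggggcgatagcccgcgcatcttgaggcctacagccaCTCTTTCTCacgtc
Rplp1, chr9:61762326-61762405, minus strand: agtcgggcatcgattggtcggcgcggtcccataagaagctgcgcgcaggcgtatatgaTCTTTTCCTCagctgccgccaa
The next 3 genes had no LHX6 interval at the start.
Rpl14, chr9:120480572-120480651, plus strand: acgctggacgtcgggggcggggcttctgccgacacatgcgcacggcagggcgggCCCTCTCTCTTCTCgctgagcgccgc
Rpl26, chr11:68715025-68715104, plus strand: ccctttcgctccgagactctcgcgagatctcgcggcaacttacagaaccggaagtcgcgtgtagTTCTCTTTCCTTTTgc
Rps12, chr10:23506996-23507075, minus strand: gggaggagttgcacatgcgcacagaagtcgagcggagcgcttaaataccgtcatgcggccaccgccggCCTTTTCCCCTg
Both groups carry the run because the genes were chosen for it, with 9 to 15 letters with an interval and 11 to 14 without.

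LHX6 intervals lay at the starts of 41 of 77 core ribosomal protein genes (53.2%, exact Clopper-Pearson 95% interval 41.5 to 64.7, which covers counting error only). The background was 11.1% of the 21874 protein-coding genes of the RefSeq gene table, and 19.8% of the 10808 GENCODE protein-coding genes with a CpG-rich start, defined as at least 50% G+C and a CpG observed over expected ratio of at least 0.6 in the surrounding 500 bp. Of the 71 core ribosomal protein genes with such a start, 37 (52.1%) had an interval. The share was thus higher than both backgrounds by count, and the difference was not tested.

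The subunits had similar shares. An interval was present at 22 of 43 genes of the 60S subunit outside the stalk (51.2%, 35.5 to 66.7), at 17 of 31 genes of the 40S subunit (54.8%, 36.0 to 72.7) and at 2 of 3 P stalk genes. Of the 7 paralogues, Rpl36al and Rpl7l1 had an interval, with heights of 22 (chromosome 12, 70284646 to 70285521) and 19 (chromosome 17, 46919018 to 46919904), and Rpl3l, Rpl10l, Rpl22l1, Rpl39l and Rps27l had none. None of 4 retrogenes of the gene table with a ribosomal protein name was called, and of 152 GENCODE loci named as ribosomal protein pseudogenes, 0 were overlapped by an interval. No share over all pseudogenes was counted, so the 0 of 152 has no background and says little by itself.

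**Figure D1:**
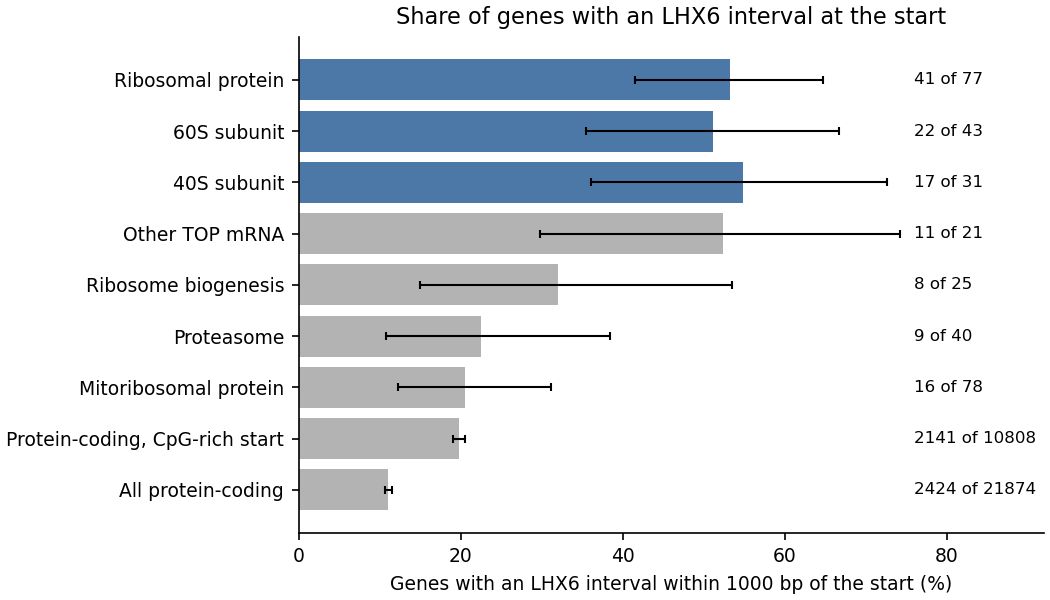
Bars give the percentage of genes with an LHX6 interval within 1000 bp of the start in each list, error bars are exact Clopper-Pearson 95% intervals for counting error, and the counts stand at the right. Ribosomal protein genes (41 of 77) and other TOP mRNA genes (11 of 21) lie above 50%, against 19.8% for CpG-rich protein-coding starts.

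Other genes of the translation machinery were counted in the same way. Of 21 further genes with TOP mRNAs, 11 had an interval at the start (52.4%, 29.8 to 74.3). Among them were Fau, whose product is cleaved into a ubiquitin-like protein and a protein of the 40S subunit (chromosome 19, 6057345 to 6058481, height 28, an interval also listed at the start of the mitoribosomal gene Mrpl49 and counted in both lists), Eef1a1, which encodes the factor that brings aminoacyl-tRNA to the ribosome (height 28), Eef2, which encodes the translocation factor (height 27), and Rack1, a scaffold protein on the 40S subunit (height 27). Among the genes without an interval were Npm1, Eef1g and Eif4b. Ribosome biogenesis genes had an interval in 8 of 25 cases (32%, 14.9 to 53.5). The heights there ran from 15 at Wdr12 to 37 at Nolc1, which encodes a chaperone of small nucleolar ribonucleoproteins, and the starts of the RNA polymerase I subunit genes Polr1b and Polr1d had heights of 26 and 24. Proteasome genes (9 of 40, 22.5%) and mitoribosomal protein genes (16 of 78, 20.5%) had shares close to the 19.8% of CpG-rich starts. The proteasome list was taken by symbol and so includes Psmc3ip, which is not a proteasome subunit and had no interval. Psma2 and Mrpl32 share an interval (chromosome 13, 14705063 to 14705820, height 24), which is counted in both of these lists.

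Ribosomal protein intervals had heights near the middle of the whole list. Height, the highest density of 150 bp fragments in the interval as given by the authors, had a median of 22 (quartiles 20 and 27, lowest 16, highest 37), against 21 over all gene starts (quartiles 18 and 26) and 22 over all LHX6 intervals. Of the intervals at all gene starts, 84.8% lay between 16 and 37, 10.6% below and 4.59% above. In height 22 of the 41 intervals reached the median of all LHX6 intervals and 19 did not. In mean density, the average over the interval, 30 of the 41 (73.2%) reached the median of all LHX6 intervals. At all gene starts the share was 55.7%. It was 77.8% at 9 proteasome, 72.7% at 11 other TOP mRNA, 62.5% at 16 mitoribosomal and 50% at 8 ribosome biogenesis starts. The median mean densities were 11.3 at ribosomal protein starts and 10.6 at all gene starts. The ribosomal protein intervals had a median length of 1040 bp (638 to 1726), against 1016 bp at all gene starts. Across the 40 members with a GENCODE start, Spearman's rho of height was -0.03 with G+C content and 0.07 with the CpG ratio. These members share 1 library and sequences of like composition.

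**Figure D2:**
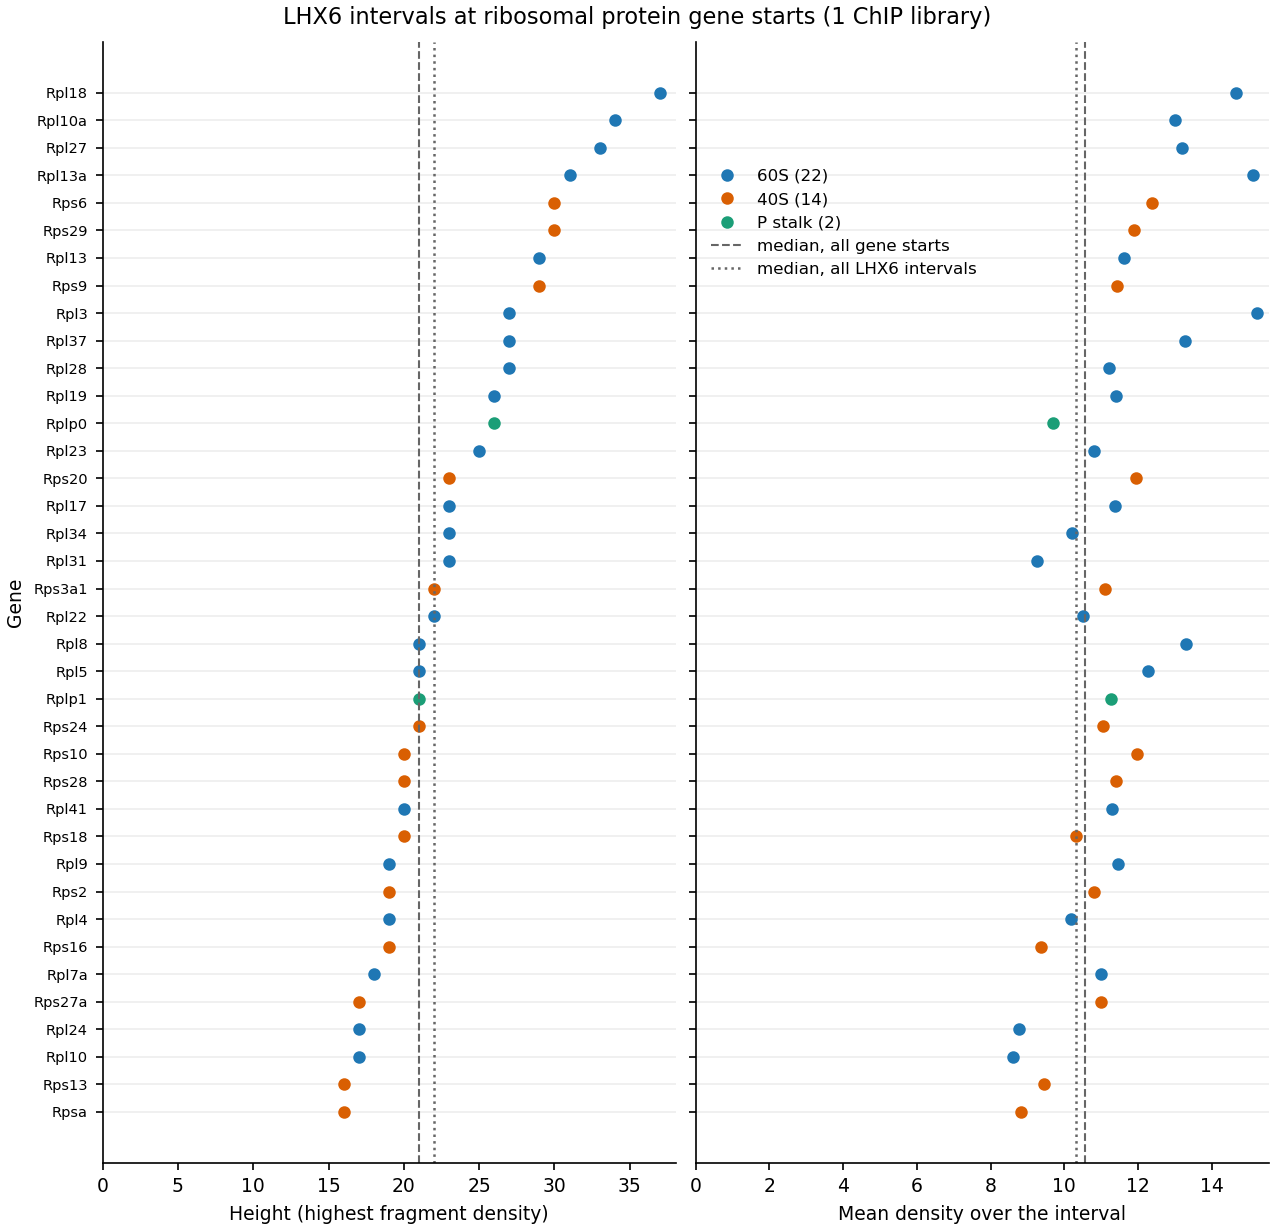
Each row is a core ribosomal protein gene with an LHX6 interval at its start, for 38 of the 41 members, and points give the height (left) and mean density (right) of that interval in the 1 ChIP library, coloured by subunit. The dashed line is the median of all gene starts and the dotted line that of all LHX6 intervals. Heights run from 16 at Rpsa and Rps13 to 37 at Rpl18.

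The highest intervals of the 60S subunit lay at Rpl18, Rpl10a, Rpl27, Rpl13a and Rpl13. That of Rpl18 (chromosome 7, 52973004 to 52973979) had a height of 37, rank 697 of 6566 by height, and a mean density of 14.7. Its summit lay at -33 bp from the Rpl18 start (negative is upstream) and at -123 bp from the start of Sphk2, a sphingosine kinase gene, so the signal cannot be assigned to either start alone. The interval of Rpl10a (chromosome 17, 28464298 to 28466024) was the longest of the group at 1726 bp, with a height of 34, a mean density of 13.0 and a summit 7 bp downstream of the nearest annotated start. At Rpl27 (chromosome 11, 101303203 to 101304213) the height was 33, the mean density 13.2 and the summit at -28 bp. Rpl13a, whose protein is released from the ribosome in interferon-treated human monocytes to silence mRNAs, had a height of 31 and a mean density of 15.1 (chromosome 7, 52383404 to 52384991), with its summit in an intron 26 bp downstream of the start. Rpl13 (chromosome 8, 125625828 to 125626786) had a height of 29 and a mean density of 11.6, with the summit at -10 bp.

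In the 40S subunit, high intervals lay at Rps6, Rps29 and Rps9. Rps6, which encodes the protein phosphorylated by S6 kinases downstream of mTOR, had a height of 30 and a mean density of 12.4 (chromosome 4, 86502749 to 86503724), with the summit in an intron 52 bp downstream of the start. Rps29 had the shortest interval of the group at 638 bp (chromosome 12, 70259764 to 70260402), also with a height of 30, with a mean density of 11.9. Rps9 (chromosome 7, 3655150 to 3656453) had a height of 29, a mean density of 11.4 and a summit 21 bp downstream of the start. All of these lie above the median height of 20 over the 17 intervals of the 40S subunit, and the 22 intervals of the 60S subunit had a median of 23, with ranges of 16 to 34 and 17 to 37 that overlap over most of their length.

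Height and mean density did not give the same order. Rpl3, which reaches towards the peptidyl transferase centre, had the highest mean density of the group at 15.2 with a height of 27 and a summit at -4 bp (chromosome 15, 79913015 to 79914646). Rpl31, with a height of 23, had a mean density of 9.27. Rpl8, also part of the region around the peptidyl transferase centre, had a height of 21 and a mean density of 13.3 (chromosome 15, 76734224 to 76735314).

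The lowest intervals had heights of 16 and 17. Rpsa, the laminin receptor precursor of the 40S subunit, had a height of 16 and a mean density of 8.84 (chromosome 9, 120036436 to 120037600), rank 5578 of 6566. Rps13 (chromosome 7, 123476979 to 123478240) also had a height of 16, with a mean density of 9.45 and the summit at -72 bp. A height of 17 was given at Rpl10 on chromosome X (71515539 to 71516506, mean density 8.60), at Rpl24 (chromosome 16, 55966088 to 55966777, mean density 8.76) and at Rps27a, whose product is a fusion with ubiquitin (chromosome 11, 29447427 to 29448667, mean density 11.0). These members lie above the lowest height in the whole list, which was 10.

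Rpl5 had an interval and Rpl11, Rps19 and Rpl38 had none; these genes are named for their well-known roles and are not a full list of ribosomal protein genes with such roles. Rpl5 and Rpl11 form a complex with the 5S rRNA that binds MDM2 when ribosome assembly is disturbed. The Rpl5 interval (chromosome 5, 108329376 to 108330203) had a height of 21, a mean density of 12.3 and a summit at -1 bp. The LHX6 summit nearest to Rpl11 lay 56.1 kb away, and that nearest to Rps19, mutated in human Diamond-Blackfan anaemia, 173 kb away. Rpl38, which in mice is required for translation of a subset of Hox mRNAs and for axial patterning, also had no interval, with the nearest summit at 56.3 kb. In the P stalk, Rplp0 had a height of 26 and a mean density of 9.70 (chromosome 5, 116009174 to 116010038). Rplp1 had a height of 21 and a mean density of 11.3 (chromosome 9, 61762042 to 61762988). Rplp2 had no interval at its start. An interval that names it at -10003 bp lay at -35 bp from the start of Slc25a22, which encodes a mitochondrial glutamate carrier.

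Further members had heights between 18 and 27. In the 60S subunit these were Rpl37 and Rpl28 (both 27), Rpl19 (26), Rpl23 (25), Rpl17 and Rpl34 (both 23), Rpl22 (22), Rpl41 (20), Rpl4 and Rpl9 (both 19) and Rpl7a (18). In the 40S subunit they included Rps20 (23), Rps3a1 (22), Rps24 (21), Rps10, Rps28 and Rps18 (all 20), and Rps2 and Rps16 (both 19). Of the members with further intervals, the start interval of Rpl34 lay at 130432576 to 130433580 on chromosome 3 (mean density 10.2), that of Rpl31 at 39424375 to 39425577 on chromosome 1 and that of Rps10 at 27771653 to 27772564 on chromosome 17 (mean density 11.96).

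Summits lay close to the annotated start. Of the 40 members with a GENCODE start, 39 (97.5%) had the summit within 250 bp of the nearest transcript start, against 77.4% of 2211 intervals at all gene starts with an annotated start within 5000 bp. The members' median distance without regard to side was 64.5 bp, against 102 bp. In other lists, 93.75% of 16 mitoribosomal, 88.9% of 9 proteasome and 100% of 7 ribosome biogenesis summits lay within 250 bp. Their median distances were 26, 31 and 35 bp. At 11 other TOP mRNA starts the share was 72.7% and the median 137 bp. The members' median signed position was 10 bp downstream, with 21 members downstream and 19 upstream. At all gene starts it was -29 bp, and 877 of 2211 summits lay downstream. Measured by the deposited distance, the members' median was -13 bp, so the side on which it falls depends on the annotation. By GENCODE, 14 summits lay in an intron, 12 in an untranslated exon and 14 outside the gene. The farthest upstream was that of Rpl37, at -469 bp, and the farthest downstream that of Rpl7a, at 194 bp.

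**Figure D3:**
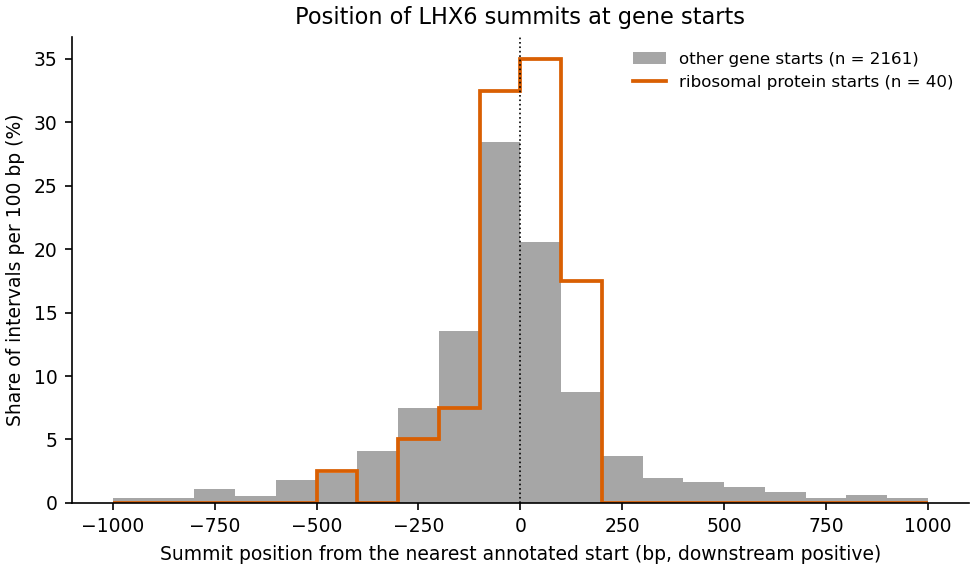
The share of intervals in 100 bp bins is plotted against the position of the summit relative to the nearest annotated start of the gene, for 40 ribosomal protein starts (line) and 2161 other gene starts within the plotted range (grey). Ribosomal protein summits lie between -469 and 194 bp, and 39 of 40 lie within 250 bp of the start.

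Few intervals lay near the distance limit. Just inside it was Rpl37, with a deposited distance of -501 bp, and just outside it was Rpl7, with -1128 bp. The interval that names Rpl7 (chromosome 1, 16094207 to 16096009, height 21) lay at -347 bp from the start of Rdh10, a retinol dehydrogenase gene, and 873 bp from a GENCODE start of Rpl7. Counted by GENCODE coordinates, 41 ribosomal protein genes had a summit within 1000 bp of a transcript start, 40 of them shared with the count by deposited distance, against 13% of the 22089 GENCODE protein-coding genes. Rpl41 has no GENCODE M1 entry and is counted by the deposited distance alone. Of the 41 members, 36 stand in lists with other genes. With intervals assigned to 1 gene alone, 5 of 77 ribosomal protein genes (6.49%: Rpl34, Rps3a1, Rps6, Rps10 and Rps20) were left against 8.84% of CpG-rich starts, so the order of the shares turned. With intervals that have no other gene start within 1000 bp it did not, with 33 of 77 (42.9%) against 15.2%.

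The remaining 8 members shared their interval with another gene start. One was Rpl18, described with Sphk2. The interval of Rps28 (chromosome 17, 33961047 to 33961977, mean density 11.4) lay at -119 bp from the start of Ndufa7, a gene of respiratory complex I. That of Rps18 (chromosome 17, 34092104 to 34093374, mean density 10.3) lay at -213 bp from Vps52. That of Rps27a lay 322 bp from 1700034F02Rik. In Rps2 (chromosome 17, 24856458 to 24857359, mean density 10.8) the other start was that of the small nucleolar RNA Snora64, at -854 bp. In the 60S subunit, the interval of Rpl9 (chromosome 5, 65782077 to 65783123, mean density 11.45) lay at -187 bp from Lias, which encodes lipoic acid synthetase. That of Rpl4 (chromosome 9, 64020862 to 64021765, mean density 10.2) lay at -478 bp from Zwilch and was the only one of the 41 without a CpG island. That of Rpl7a (chromosome 2, 26765805 to 26766997, mean density 11) lay at -558 bp from Surf5. At these 8 starts the signal cannot be assigned to the ribosomal protein gene alone. The paralogue Rpl36al likewise shared its interval with Mgat2.

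None of the 41 ribosomal protein intervals overlapped any of the 6 intervals listed for input (0 of 41). With so few input intervals beside 6566 LHX6 intervals, hardly any overlap was possible for any set, so this count says little about the members. The share of all LHX6 intervals with such an overlap was not counted. The table gives densities only inside the intervals of the same library, so input density at these starts is unknown and no ratio to input can be given. Depth is likewise unknown, since no read totals were available.

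No interval was listed at the start of 36 core ribosomal protein genes. In the 60S subunit these included Rpl6, Rpl7, Rpl11, Rpl12, Rpl14, Rpl15, Rpl21, Rpl23a, Rpl26, Rpl27a, Rpl29, Rpl30, Rpl32, Rpl35, Rpl35a, Rpl36, Rpl36a, Rpl37a, Rpl38 and Rpl39. In the 40S subunit they included Rps3, Rps4x, Rps7, Rps12, Rps14, Rps15, Rps15a, Rps19, Rps21, Rps23, Rps25, Rps26 and Rps27, and in the stalk Rplp2. For most of them the nearest LHX6 summit was distant, with a median of 64.5 kb, and it lay beyond 100 kb for 15 and between 10 and 100 kb for another 15. The 5 between 1 and 10 kb were Rpl12 (3.4 kb), Rpl32 (4.52 kb), Rpl23a (5.28 kb), Rpl35a (5.31 kb) and Rplp2 (9.72 kb). Of these nearest intervals, those that name Rpl23a and Rpl35a lay 32 bp from the start of Rab34 and -191 bp from that of Lmln. The median distance over all protein-coding genes without an interval at the start was 130 kb. At the depth of 1 library, an interval missing from the list does not show that LHX6 is absent.

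The starts with and without an interval overlapped widely in base composition, with somewhat higher medians at those with one. The annotated start used here lay inside the interval for 39 of the 40 members, and for Rpl18 it lay outside, so the Rpl18 window does not describe its interval. In the 500 bp around the start, the median G+C content was 60.3% (48 to 71.6) at the 40 starts with an interval and 58.6% (45.6 to 66.4) at the 36 without. The median CpG observed over expected ratio was 0.934 (0.572 to 1.11) and 0.849 (0.651 to 1.10). Without Rpl18 the medians with an interval were 60.4% and 0.937. The ranges overlap almost completely, and 37 of 40 and 34 of 36 starts counted as CpG-rich. Over all protein-coding genes, by contrast, 88.2% of the starts with an interval and 44.1% of those without were CpG-rich. Many ribosomal protein genes carry small nucleolar RNA genes in their introns. An interval was present at 18 of 30 such host genes (60%) and at 22 of the 46 others (47.8%).

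**Figure D4:**
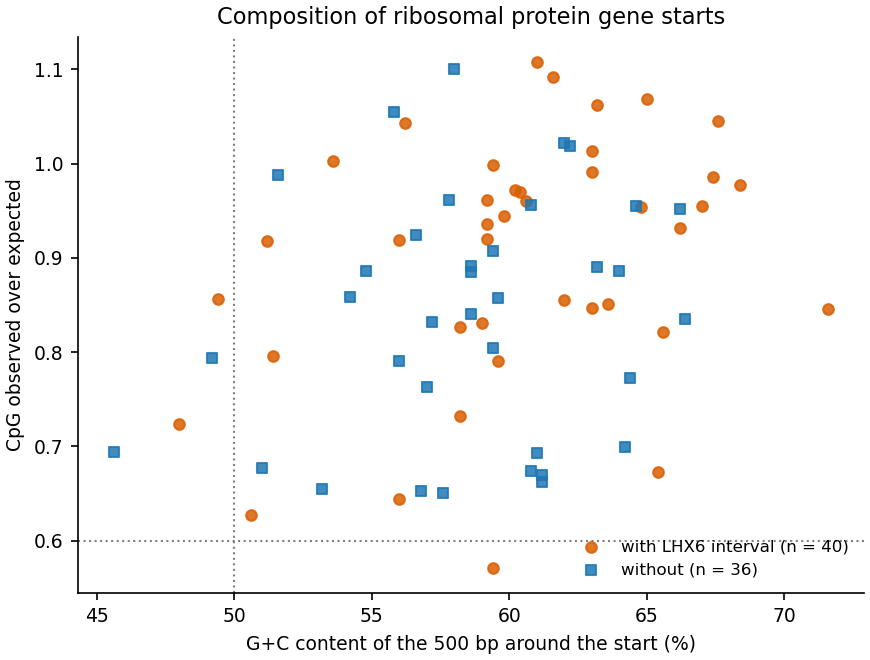
Each point is the annotated start of a core ribosomal protein gene, with the G+C content of the surrounding 500 bp on the x axis and the CpG observed over expected ratio on the y axis, for the 40 starts with an LHX6 interval (circles) and the 36 without (squares). Dotted lines mark the limits of 50% and 0.6 for a CpG-rich start, and both groups spread over the same area.

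The pyrimidine run, the ETS site and TATAAA had similar shares with and without an interval, while the GC box, the CCAAT box and the E-box were counted at more of the starts with one. None of these differences was tested. A run of at least 8 C or T letters within 50 bp of the start was present at 27 of 40 starts with an interval (67.5%) and 25 of 36 without (69.4%), against 35.6% of all 22089 protein-coding starts and 29.9% of CpG-rich ones. In windows from 250 bp before to 50 bp after the start, read on both strands, CCGGAAG, a site of ETS factors, was present in 32.5% and 33.3%, against 11.0% of all starts and 19.1% of CpG-rich ones. GGGCGG, the GC box of SP factors, was present in 60% with an interval and 44.4% without, against 45.0% and 74.1%. CCAAT, the box bound by NF-Y, was present in 40% and 25%, against 37.7% and 37.3%. CACGTG, an E-box, was present in 17.5% and 8.33%, against 7.86% and 11.3%. TATAAA was present in 12.5% and 11.1%, against 13.3% and 5.33%, and AAGATGGC, the core of YY1 sites, in 5% and 11.1%, against 3.28% and 4.76%. The palindromic NRF1 site was found at 0 of 40 and 1 of 36, against 1.15% and 2.22%. These hexamers and longer words can overlap each other, and a match is not a site.

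**Figure D5:**
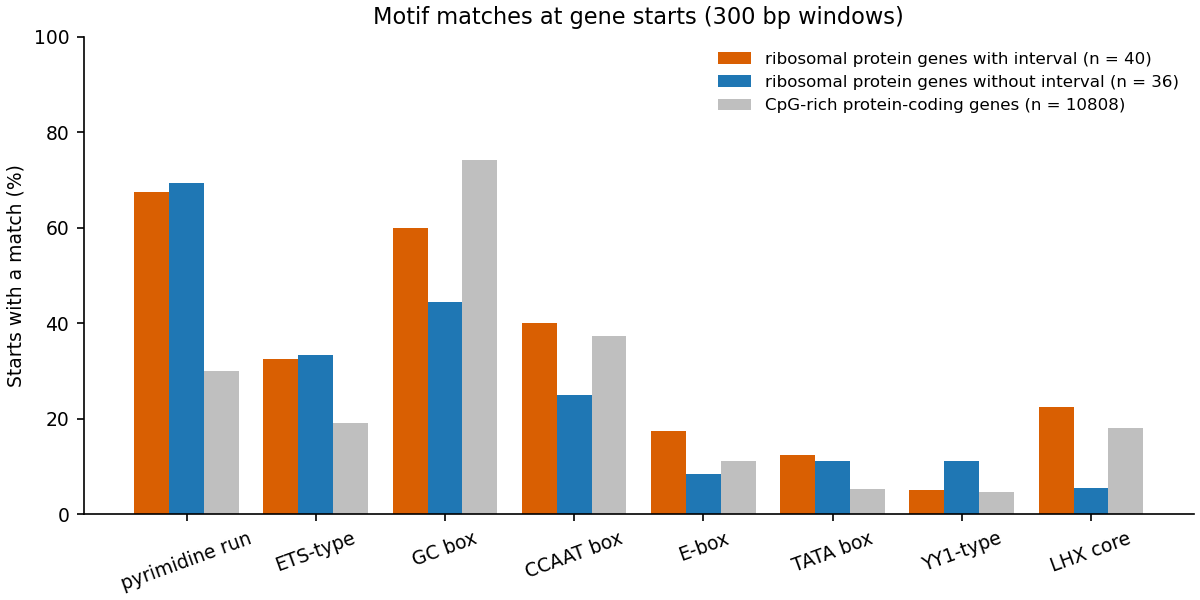
Bars give the percentage of starts with a match to each motif, for ribosomal protein genes with (40) and without (36) an LHX6 interval and for 10808 CpG-rich protein-coding genes. The pyrimidine run was sought within 50 bp of the start and the others in 300 bp windows on both strands, and LHX core stands for any of the 3 homeodomain hexamers described in the text. The pyrimidine run is present at 67.5% and 69.4% of ribosomal protein starts and at 29.9% of CpG-rich starts.

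Few ribosomal protein summits held a hexamer of the kind that LIM homeodomain proteins bind. The first hexamer sought was TGATTG. The next was TGATTA, which differs from it in the last base. The last was the palindrome TAATTA. All were taken from earlier results of these data, so their shares here are not independent of that choice. At least 1 of the hexamers, read on both strands, lay within 100 bp of the summit in 6 of 41 members (14.6%, exact interval 5.57 to 29.2). The share was 27.3% at all gene starts and 62.9% at the intervals away from gene starts. In the other lists it was 12.5% of 16 mitoribosomal, 11.1% of 9 proteasome, 18.2% of 11 other TOP mRNA and 37.5% of 8 ribosome biogenesis starts. Summits of members had a median G+C content of 61.7%, against 65.2% at all gene starts and 46.3% away from them. The hexamers are rich in A and T, and the part of base composition in these shares was not tested. The members with a match included Rps9, Rpl13, Rps24 and Rpl10 with TGATTG, and Rps27a with TGATTA. The palindrome was found at 0 members. The heights of these named members ran from 17 to 29, and 35 members, among them Rpl18 with the highest interval, had no match.

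Matches outside untranslated exons are printed for 3 genes with 27 bases of flank on each side from mm9, 5′ to 3′ on the gene's strand, since they show the hexamer in its promoter context. Capitals mark the hexamer, which reads as its reverse complement in Rps27a and Rpl10.
Rps9, chr7:3655530-3655589, plus strand: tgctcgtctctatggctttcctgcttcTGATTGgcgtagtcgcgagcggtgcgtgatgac
Rps27a, chr11:29448209-29448268, minus strand: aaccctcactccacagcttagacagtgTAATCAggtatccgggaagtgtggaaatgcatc
Rpl10, chrX:71515866-71515925, plus strand: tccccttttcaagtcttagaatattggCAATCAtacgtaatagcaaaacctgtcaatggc
Relative to the summit and along the gene's strand, the hexamer lay at -8 bp in Rpl10, 33 bp in Rps27a and -56 bp in Rps9. Rps9 had another TGATTG 64 bp downstream of the summit. The TGATTG of Rpl13 stands in the start sequence printed with the other starts, 16 bp downstream of the summit. In Rps24 (chromosome 14, 25309336 to 25310827, height 21, mean density 11.1) it lay at -96 bp.

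Over the 300 bp promoter windows, which do not depend on the summit, at least 1 of the 3 hexamers was present at 9 of 40 ribosomal protein starts with an interval (22.5%, or 9 of 39 without Rpl18) and at 2 of 36 without (5.56%). The shares were 23.7% of all protein-coding starts, and 1943 of the 10808 CpG-rich ones had a match. TGATTG made up most of this, with 7 of 40 and 1 of 36. The difference was not tested.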

How the data were processed

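Per the labels' protocols, BWA placed the reads of 1 LHX6 and 1 input library on mm9, and each tag was lengthened in silico to a 150 bp fragment. The submitters' processing notes also list MACS; versions and the interval threshold are not stated in the labels. The signal values deposited by the authors are fragment densities per interval (height and mean over 32 bp bins), with 0 columns of other samples. Their gene lists and distances to starts were used as deposited. Symbols were matched to the RefSeq gene table of GRCm38.p6 by name or unique synonym (4791 of 5266), and only names were taken from it. Starts, exons and sequences came from GENCODE M1 on NCBIM37, with 1 start per gene (the lowest-numbered coding transcript) for composition and motifs. Core genes exclude pseudogenes, retrogenes, paralogues and Rps19bp1. No test was run, since each group had 1 library. Depth is unknown, so intervals of shares cover counting error alone. The members, lists and motifs were chosen with earlier results of these data known. Some genes and sequences are not reported here, though the counts include them. The others were named by rule: all with an interval and all without, with position and mean density for the 10 highest and 5 lowest intervals, for Rpl5, Rpl11, Rpl38, Rpsa, the stalk genes, Rps6 and Rps19, and for members with a hexamer match, further intervals or a shared start. Rpl3, Rpl8 and Rpl31 under mean density, the genes named from other lists and the printed start sequences were chosen after their values were seen. Motif scans were tested on simulated data. Alternatives changed the distance, height, gene assignment and windows. Python 3.11.15, pandas 2.3.3, scipy 1.17.1 and pysam 0.24.0 were used.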

Additional observations from a re-analysis of the deposited data

How the results depend on the processing

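Of 33 alternatives, 27 stayed within the limits set for each value (1.5 times for a count, the exact 95% interval for a median or share) and 6 did not. The median summit position lay on the other side of the start by the deposited distance (-13 bp, against 10 bp by GENCODE), inside its interval. The count of ribosomal protein genes with an interval, 41, ran from 40 to 43 under other distance limits, annotated starts, unresolved symbols or added paralogues, and was 33 without intervals near another gene start (this alternative, the unresolved symbols, the subunit counts by coordinates and the composition without Rpl18 were chosen after the data were seen). It fell to 22 with intervals at or above the median height (28.6%, against 9.76% of CpG-rich starts), to 9 at a height of 28 or more (11.7%, against 4.27%) and to 5 with intervals assigned to 1 gene alone (6.49%, against 8.84%, the opposite order), all by construction from fewer intervals. The median height was 27 above the median of all intervals, again by construction, and the median mean density was 11.9 over the 5 intervals with 1 gene. The share with an LHX hexamer was 29.3% within 250 bp of the summit, against 38.9% at all gene starts, and 7.32% both within 50 bp (19.4% at all gene starts) and around the middle of the interval (20.6%). No paired analysis was possible because each group had 1 library and no test was run.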

Other observations

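Further intervals named 8 of the 41 members from beyond 1000 bp. The same share over all genes with an interval at the start was not counted, so the 8 of 41 has no background. Rpl34 had 2 of these, downstream of the gene at 5.72 and 13.5 kb from its start, with heights of 17 and 26 and no CpG island, while the interval at its start had a height of 23. Rpl31 had 1 at -1.95 kb with a height of 17, also without a CpG island. Others lay at the starts of neighbouring genes: that named for Rpl24 at 7.27 kb was at -153 bp from the start of Zbtb11, and that named for Rps10 at 11.9 kb was 77 bp from the start of Nudt3.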
